A study of Homo sapiens with 7 samples.

Results

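In 187 of 8437 autosomal 250-kb windows (2.216%), all K562 arrays placed the DNA among the earlier replicating windows and all U2OS arrays placed it among the later ones. The windows cover 46.75 Mb and fall into 130 runs of adjoining windows, with probes in 319 distinct protein-coding genes. They were chosen by their measured timing: every window with at least 3 probes on all 7 arrays was ranked within each array from 0 (latest) to 1 (earliest), and a window was taken when its rank was above 0.55 on the 3 K562 arrays and below 0.45 on the 4 U2OS arrays. The difference in timing between the cell lines in these windows is therefore a description and carries no test. By the same thresholds, 278 windows were late in K562 and early in U2OS, 2310 were early on all 7 arrays, 2220 were late on all 7 arrays and 3442 were in none of these classes.

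The series measured replication timing on 2-colour Agilent arrays, as the test of a simplified procedure for the assay. K562 is a suspension line from chronic myeloid leukaemia with erythroid and megakaryocytic features, and U2OS is an adherent osteosarcoma line with mesenchymal features. Both are untreated apart from the label: cells took up bromodeoxyuridine (BrdU, 50 µM) for 2 h, 80000 fixed cells were sorted by DNA content into fractions of early and of late S phase, and BrdU-labelled DNA was pulled down, amplified and hybridised, early in Cy3 and late in Cy5. K562 was measured once after a new sorting method, once after an old sorting method and once on an array labelled 44k, whose sorting method the titles do not give. U2OS was measured on 2 arrays by manual and 2 by automated handling, and the titles do not say which step this means. The labels do not say that arrays came from separate cultures, so the spread given below may be partly technical, and each cell type is represented by a single line.

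Chromosomes replicate in large domains that fire their origins at set times within S phase. Early domains are as a rule rich in genes, open and transcribed, while late domains are poorer in genes, compact and often held at the nuclear lamina. Timing of part of the genome differs between cell types, and a domain that holds genes used by a cell type is often earlier there, although timing alone does not show that a gene is transcribed.

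Brightness differed between arrays in a way that touches these windows. Within the 187 windows, the late-channel signal was well above background at 43.43% of spots on the new-sorting array, 71.34% on the old-sorting array and 3.464% on the 44k array. On the manual U2OS arrays 80.56% and 66.82% of late-channel spots were well above background, against 99.52% and 99.82% on the automated arrays. The rule favours a low late signal in K562 and a high one in U2OS, so these shares partly follow from it. Over all ranked windows they were 58.72% (new sorting), 76.32% (old sorting) and 8.622% (44k) in K562. In U2OS they were 59.95% and 39.83% with manual and 96.31% and 96.77% with automated handling. No slide held both cell lines, and the same dye carried the early fraction on all 7 arrays, so cell line cannot be told apart from slide. As a check of the labels, the window of CDKN2A, a tumour suppressor gene known to be deleted in K562, had a total signal of -1.31 ± 0.46 (SD, n = 3) in K562, below the -0.26 ± 0.21 (SD, n = 4) of U2OS (difference -1.05, SE 0.19, limma adjusted p = 0.00376).

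Probes near the middle of the windows show what was read on the arrays. Those below come from 6 of the 10 windows in which the cell lines stood furthest apart, with their hg19 positions, and capitals mark CpG dinucleotides.
SAMSN1 probe, chr21:15872955-15873014: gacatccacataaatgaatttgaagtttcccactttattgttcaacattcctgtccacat
ICA1 to NXPH1 probe, chr7:8383976-8384035: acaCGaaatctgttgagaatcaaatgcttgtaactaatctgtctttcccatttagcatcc
BTG1 neighbour probe, chr12:92422564-92422623: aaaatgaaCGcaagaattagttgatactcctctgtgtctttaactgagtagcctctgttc
ZEB2 probe, chr2:145157585-145157644: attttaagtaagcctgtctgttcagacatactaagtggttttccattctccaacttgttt
ADGB to STXBP5 probe, chr6:147442335-147442394: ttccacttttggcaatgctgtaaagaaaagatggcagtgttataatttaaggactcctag
ANKMY2 probe, chr7:16639522-16639576: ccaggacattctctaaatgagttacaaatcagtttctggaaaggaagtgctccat
The probe in SAMSN1, which encodes an SH3 and SAM domain adaptor of blood cells, read 1.45, 0.50 and 1.61 on the K562 arrays and -1.16, -1.13, -2.77 and -1.95 on the U2OS arrays. These values are log2(early/late), the early-fraction over the late-fraction signal relative to each array's median probe, and are given throughout in the order new sorting, old sorting and 44k for K562, then manual 1, manual 2, automated 1 and automated 2 for U2OS. The probe between ICA1 and NXPH1 on chromosome 7 read 1.29, 0.71 and 1.16 on the K562 arrays and -0.92, -1.02, -2.61 and -2.27 on the U2OS arrays. In both probes, each K562 value was above 0 and each U2OS value below it. The ZEB2 probe read 1.66, 0.69 and 1.197 on the K562 arrays and -0.58, 0.13, -1.27 and -1.01 on the U2OS arrays, so a single U2OS array was above 0. The probe in ANKMY2 read 1.48, 0.17 and 1.40 on the K562 arrays and 0.31, 0.38, 0.28 and -0.27 on the U2OS arrays, positive on 3 of 4 U2OS arrays although its window as a whole was late there. The probe beside BTG1 read 1.36, 0.53 and 1.22 on the K562 arrays and -0.66, -1.01, -1.82 and -1.33 on the U2OS arrays, and the probe between ADGB and STXBP5 read 0.996, -0.12 and 0.85 on the K562 arrays and -0.73, -0.46, -0.79 and -0.77 on the U2OS arrays, with its value on the old-sorting array below 0. Single probes thus did not all follow their window, which held a median of 18 probes on the larger array design.

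Over the 187 windows the median log2(early/late) was 1.002 on the new-sorting, 0.44 on the old-sorting and 0.68 on the 44k K562 array. On the U2OS arrays it was -0.42 and -0.32 with manual handling and -0.998 and -0.952 with automated handling. All 187 windows were above 0 on all 3 K562 arrays and 180 were below 0 on all 4 U2OS arrays; the other 7 were slightly positive on the manual 2 array. Counted over probes, 96.08%, 86.1% and 89.43% were positive on the K562 arrays and 17.64%, 16.14%, 8.895% and 6.439% on the U2OS arrays, where between 51.95% and 54.5% of probes in all ranked windows were positive. The difference of the cell line means ranged from 0.63 to 2.43 with a median of 1.38. The size of these values thus differed between arrays of a line: the old-sorting and the manual arrays gave the values nearest to 0.

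The margin by which windows met the rule varied. The gap, defined as the lowest K562 rank minus the highest U2OS rank, ranged from 0.1245 to 0.7814 with a median of 0.3342. It was above 0.5 in 35 windows and below 0.2 in 27, and 89 windows had a rank within 0.05 of a threshold. The window that was taken with the smallest gap, chr4:124000001-124250000 in AFG2A, had ranks of 0.61, 0.57 and 0.70 in K562 and 0.41, 0.43, 0.45 and 0.41 in U2OS. The window that missed by the least, chr10:97500001-97750000 with CC2D2B and ENTPD1, had K562 ranks of 0.94, 0.95 and 0.96 and failed on a rank of 0.4505 on the manual 1 array. In all, 190 windows failed on a single array, 103 of them on the old-sorting K562 array, so the number taken depended most on that array. Without it the rule took 290 windows (72.5 Mb). These had to hold all 187, since leaving out an array only drops a condition.

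The window with the widest gap was chr21:15750001-16000000 (gap 0.7814), which holds SAMSN1 and HSPA13, an Hsp70-family chaperone of the endoplasmic reticulum. Its log2(early/late) was 1.33, 0.62 and 1.08 on the K562 arrays and -0.76, -0.67, -1.90 and -1.58 on the U2OS arrays, with means of 1.01 ± 0.36 (SD, n = 3) for K562 against -1.23 ± 0.60 (SD, n = 4) for U2OS. The neighbouring window chr21:16000001-16250000, which has no probe in a protein-coding gene, read 1.29, 0.47 and 1.11 on the K562 arrays and -1.103, -0.76, -1.71 and -1.47 on the U2OS arrays. In each of these windows every K562 array was above every U2OS array. The rule picked for this, and it held in all 187 windows. Over them the lowest K562 value was 0.158 and the highest U2OS value 0.055.

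The next 3 windows adjoin on chromosome 7. The window chr7:8250001-8500000, with ICA1, an islet cell autoantigen, and NXPH1, a secreted ligand of neurexins, read 1.11, 0.54 and 0.73 on the K562 arrays and -1.08, -0.998, -2.32 and -2.11 on the U2OS arrays. The window chr7:8000001-8250000, with GLCCI1 and ICA1, read 1.17, 0.65 and 0.90 on the K562 arrays and -1.13, -0.76, -2.12 and -2.08 on the U2OS arrays. The window chr7:7750001-8000000, with UMAD1 and RPA3, the smallest subunit of the single-strand binding protein of replication forks, read 0.93, 0.49 and 0.76 on the K562 arrays and -0.87, -0.89, -2.18 and -2.20 on the U2OS arrays. On both automated arrays these 3 windows were below -2, the lowest U2OS values among the 10.

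The window chr12:92250001-92500000 read 1.41, 0.63 and 1.30 on the K562 arrays and -0.66, -0.68, -1.59 and -1.42 on the U2OS arrays. It has no probe in a protein-coding gene and lies beside the window of BTG1, an anti-proliferative gene, which was also taken and read 1.03, 0.53 and 0.69 on the K562 arrays and -0.54, -0.45, -1.13 and -1.02 on the U2OS arrays. The window chr2:145000001-145250000, with QTMAN and ZEB2, read 1.35, 0.73 and 1.08 on the K562 arrays and -0.71, -0.45, -1.26 and -1.08 on the U2OS arrays. Another without a protein-coding gene, chr6:147250001-147500000, read 1.61, 0.71 and 1.26 on the K562 arrays and -0.46, -0.35, -1.199 and -1.11 on the U2OS arrays and had the highest value of the 10 on the new-sorting array.

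The window chr7:16500001-16750000, with ANKMY2, BZW2, LRRC72 and the BMP antagonist gene SOSTDC1, read 1.37, 0.62 and 0.85 on the K562 arrays and -0.59, -0.41, -1.64 and -1.67 on the U2OS arrays. The window chr8:59500001-59750000, with NSMAF and TOX, a nuclear factor of T-cell development, read 1.19, 0.73 and 1.29 on the K562 arrays and -0.42, -0.39, -1.53 and -1.28 on the U2OS arrays. The old-sorting array gave the lowest of the K562 values in all 10 windows, and the automated arrays gave the lowest of the U2OS values.

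**Figure D1:**
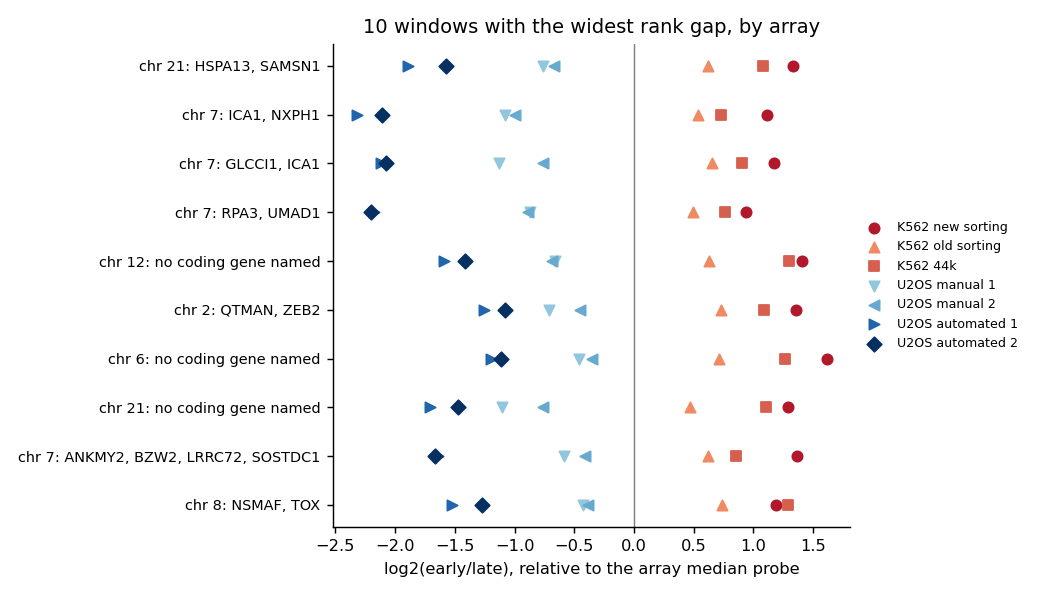
Log2(early/late) relative to the array median probe (horizontal axis) for the 10 windows with the widest rank gap, labelled by chromosome and protein-coding genes, with a point per array. All K562 points lie between 0.47 and 1.61 and all U2OS points between -2.32 and -0.35.

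Most runs, which are stretches of difference between the lines and not whole early domains, were short. Of the 130 runs, 93 were a single window, 26 had 2 windows, 4 had 3, 6 had 4 and 1 had 6 windows (1500 kb). A window with too few probes to be ranked also ended a run, so some runs may be parts of a longer stretch. Without the 44k array 10585 windows could be ranked, against 8437 with it. The 37 runs of more than 1 window held 94 of the 187 windows (50.27%). Windows with the opposite timing formed 171 runs, and 60.79% of them lay in runs of more than 1 window.

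The longest run, chr7:7000001-8500000, holds C1GALT1, the enzyme that builds the core of many O-linked glycans, COL28A1, GLCCI1, ICA1, MIOS, NXPH1, RPA3 and UMAD1. Averaged over its 6 windows it read 1.01, 0.50 and 0.76 on the K562 arrays and -0.85, -0.71, -1.85 and -1.79 on the U2OS arrays, or 0.76 ± 0.26 (SD, n = 3) for K562 against -1.30 ± 0.61 (SD, n = 4) for U2OS. The spread in U2OS is mainly that between manual and automated arrays. In 100-kb windows on the 6 arrays of the larger design, the stretch that was positive in K562 and negative in U2OS had the same borders, 1500 kb apart. Its left neighbour was early in both lines and its right neighbour late in both, so the early domain reached further to the right in K562.

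The run chr21:15500001-16500000 on chromosome 21 holds NRIP1, a corepressor of nuclear receptors, together with LIPI, RBM11, HSPA13 and SAMSN1. It read 1.04, 0.44 and 0.90 on the K562 arrays and -0.86, -0.66, -1.80 and -1.60 on the U2OS arrays. Here the nearest windows of constant timing were late on both sides, and the 100-kb stretch of opposite sign spanned 1000 kb. The domain stood in K562 as an early island within a late region.

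Both long runs on chromosome 6 had K562 means near 0.9. The run chr6:118750001-119750000 holds MCM9, a helicase of recombination repair, MAN1A1, a Golgi mannosidase, CEP85L and FAM184A, and read 1.17, 0.60 and 0.87 on the K562 arrays and -0.48, -0.44, -0.96 and -0.92 on the U2OS arrays. The run chr6:147000001-148000000 holds STXBP5, which encodes the vesicle-fusion regulator tomosyn, ADGB and SAMD5, and read 1.17, 0.52 and 0.98 on the K562 arrays and -0.60, -0.59, -1.38 and -1.28 on the U2OS arrays. The nearest windows of constant timing were late on both sides of the MCM9 run, and early on one side and late on the other of the STXBP5 run.

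The run chr5:118000001-119000000 holds HSD17B4, an enzyme of peroxisomal beta-oxidation, TNFAIP8, DMXL1, DTWD2 and FAM170A, and read 1.06, 0.42 and 0.86 on the K562 arrays and -0.79, -0.51, -1.095 and -1.05 on the U2OS arrays. The run chr14:37000001-38000000 holds the developmental transcription factor genes PAX9 and NKX2-8 beside MIPOL1 and the mitochondrial carrier gene SLC25A21, and read 0.81, 0.47 and 0.50 on the K562 arrays and -0.40, -0.48, -1.47 and -1.31 on the U2OS arrays. In 100-kb windows the PAX9 stretch of opposite sign was longer than the run, 1700 kb from chr14:36400001-38100000. The HSD17B4 stretch was shorter, 600 kb, and ended on the left at a 100-kb window that read 0.01 on manual 2. There manual 1 read -0.37, the automated arrays -0.35 and -0.52, and K562 1.32 (new sorting) and 0.69 (old sorting).

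The run chr1:184500001-185500000 holds RNF2, the ubiquitin ligase of Polycomb repressive complex 1, EDEM3, IVNS1ABP, NIBAN1, SWT1, TRMT1L and C1orf21, and read 0.84, 0.39 and 0.71 on the K562 arrays and -0.42, -0.19, -0.997 and -0.91 on the U2OS arrays. It had the smallest difference of the 10 longest runs, at 0.65 ± 0.23 (SD, n = 3) for K562 against -0.63 ± 0.39 (SD, n = 4) for U2OS.

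The run chr3:130000001-130750000 holds the collagen VI genes COL6A5 and COL6A6, the Golgi calcium pump gene ATP2C1, PIK3R4, NEK11 and ASTE1, and read 1.21, 0.58 and 0.77 on the K562 arrays and -0.45, -0.34, -1.02 and -0.99 on the U2OS arrays. The run chr1:61250001-62000000 has probes in a single protein-coding gene, NFIA, a transcription factor gene of the nuclear factor I family, and read 1.15, 0.47 and 0.70 on the K562 arrays and -0.61, -0.50, -1.27 and -1.28 on the U2OS arrays. The nearest windows of constant timing were late on both sides of NFIA, and the 100-kb stretch of opposite sign spanned 800 kb.

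**Figure D2:**
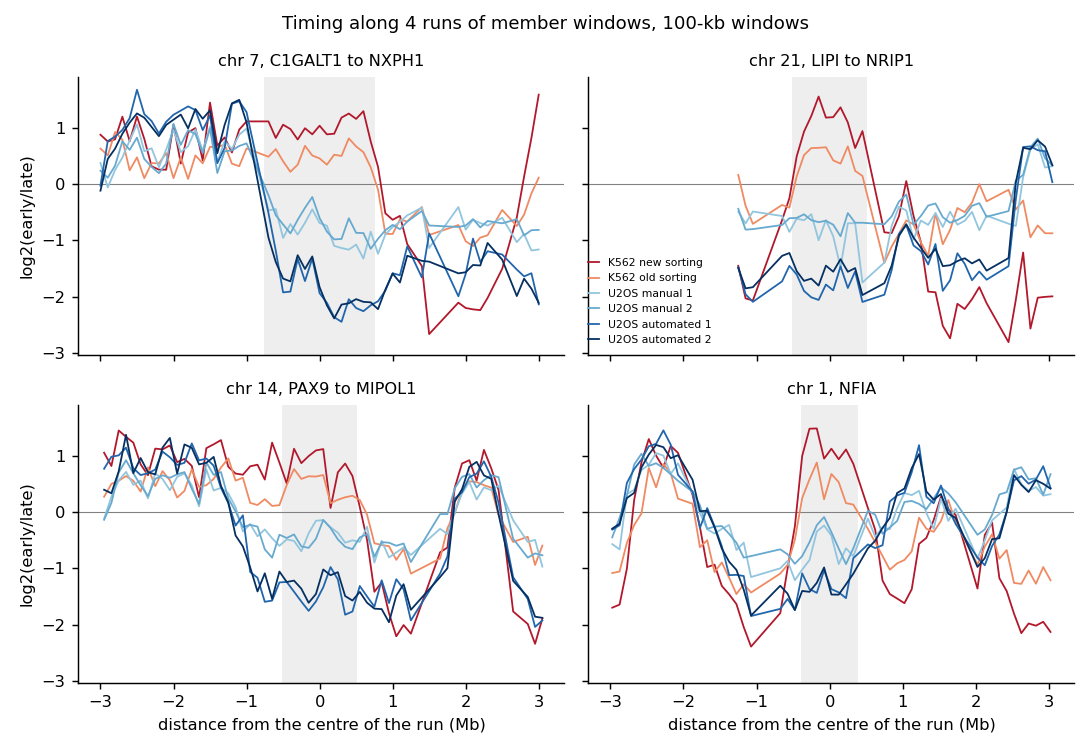
Log2(early/late) in 100-kb windows (vertical axis) against the distance from the centre of the run in Mb for 4 of the 10 longest runs, with a line per array of the larger design; grey marks the run of 250-kb windows. In the grey span the K562 lines lie above 0 and the U2OS lines below it. Left of the runs on chromosomes 7 and 14 the K562 lines are above 0 as well, and the U2OS lines fall below 0 toward the run. Stretches of opposite sign span 1500 kb on chromosome 7, 1000 kb on chromosome 21, 1700 kb on chromosome 14 and 800 kb at NFIA. Those on chromosome 14 and at NFIA reach beyond the grey.

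Beside the runs, the share of windows that were earlier in K562 fell up to 1000 kb and was slightly higher beyond it. The median rank, averaged over the arrays of a line, was 0.7863 in K562 and 0.2892 in U2OS within the windows taken. At 250 kb from the edge it was 0.6097 and 0.3246, and K562 was still the earlier line in 97.21% of 215 windows. At 500 kb the medians were 0.5253 and 0.3608, with K562 earlier in 77.18% of 206 windows, and at 1000 kb they were 0.4325 and 0.3929, with K562 earlier in 52.53% of 198 windows. At 2000 kb they were 0.4815 and 0.3876, with K562 earlier in 59.8% of 204 windows. Nearby windows are alike in timing and the runs were picked for their difference, so these values have no test.

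For each run, the nearest window on either side that was early on all 7 arrays or late on all 7 arrays was sought within 2 Mb. In 50 runs (38.46%) the one side was early and the other late, a position called border here. The share among windows of any timing was not computed, so a border position is not shown to be particular to these runs. Both sides were late in 39 runs (30.0%) and both early in 10 (7.692%). For windows late in K562 and early in U2OS the shares were 42.11% border, 19.3% with late sides and 19.88% with early sides, of 171 runs. Among the 10 K562-early runs with early sides were those of JARID2 and DTNBP1, RELN, AGAP1, TRIM21, BLNK and the AKR1C genes, where U2OS formed a late gap in an early region; these names were chosen after their values were seen.

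**Figure D3:**
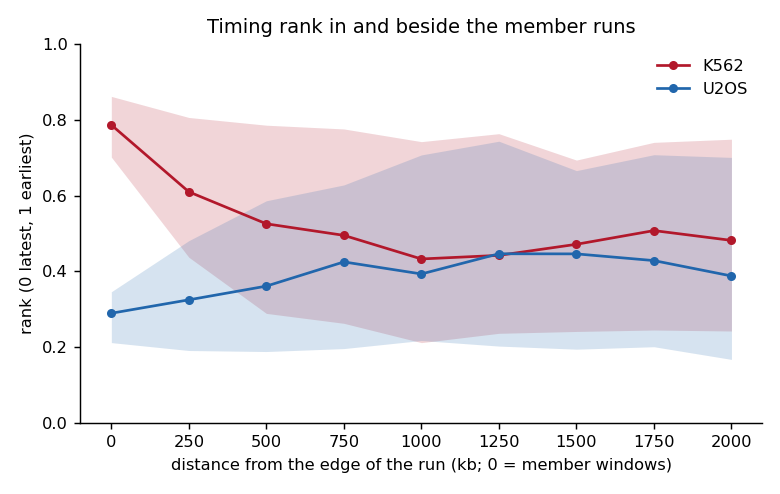
Median timing rank (vertical axis, 0 latest and 1 earliest) of the mean over K562 or U2OS arrays, in the windows taken (0 kb) and in windows up to 2000 kb from the edge of each run; bands span the quartiles. The medians are 0.7863 and 0.2892 at 0 kb 0.4325 and 0.3929 at 1000 kb, and 0.4815 and 0.3876 at 2000 kb.

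The windows were spread over 21 of the 22 autosomes. Shares were highest on chromosome 6 (20 of 524 ranked windows, 3.817%), chromosome 7 (20 of 534, 3.745%), chromosome 21 (4 of 122, 3.279%) and chromosome 8 (13 of 420, 3.095%). All 4 windows of chromosome 21 formed a single run, and 6 of the 20 on chromosome 7 formed the longest run, so these counts are not of separate domains. Chromosome 22 had none of 135. Windows of the opposite timing were placed differently on some chromosomes, with 6.969% of chromosome 15 and 6.588% of chromosome 10, where K562-early windows made up 0.6969% and 1.647%, and with 1.145% of chromosome 6. On chromosome 21 both classes had a share of 3.279%.

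**Figure D4:**
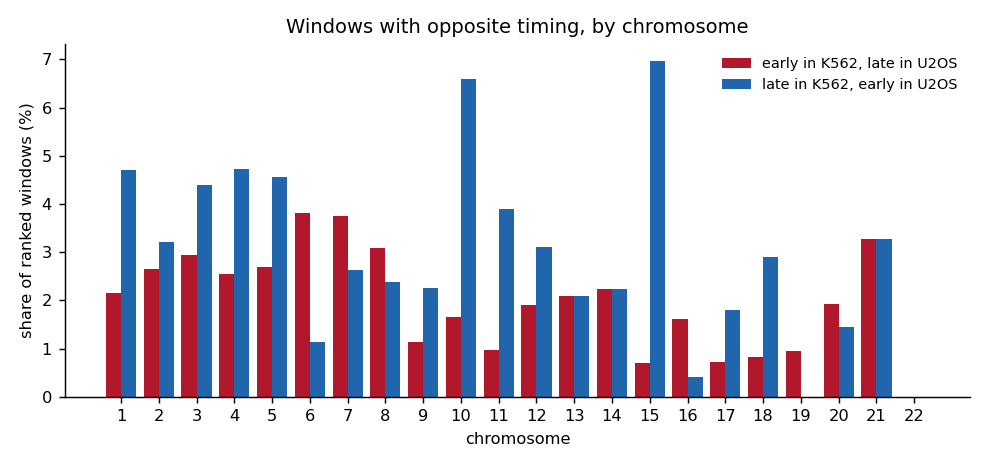
Share of ranked windows (vertical axis, %) on each autosome that were early in K562 and late in U2OS, or late in K562 and early in U2OS. The former peak on chromosome 6 at 3.817% and the latter on chromosome 15 at 6.969%.

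In number of protein-coding genes the windows lay between constantly early and constantly late DNA. They held a mean of 1.877 protein-coding genes with probes, against 3.62 in windows early on all arrays, 1.079 in windows late on all arrays, 1.781 in windows of the opposite timing and 2.271 over all. No such gene was present in 17 windows (9.091%), against 1.385% of constantly early, 23.38% of constantly late and 11.39% of all ranked windows. The median share of probes lying in genes was 83.33%, above the 82.61% of constantly early, the 81.25% of constantly late and the 81.25% of all windows. Base composition of the probes hardly separated the classes, with a median of 36.28% G and C against 36.46% over all windows, but probes are designed within a narrow range of composition and do not stand for the DNA between them.

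Marker genes of blood lineages were few among these windows. Of 29 ranked genes on a megakaryocyte list, PF4 and PPBP were included, both genes of platelet chemokines. Of 51 on a list of other blood lineages, IKZF1, which encodes the lymphoid transcription factor Ikaros, and BLNK, a B-cell receptor adaptor gene, were included. Of 51 mesenchymal and skeletal genes ZEB2 was included. None of 43 erythroid, 33 epithelial or 41 neuronal genes was. Over all 15559 ranked protein-coding genes the share was 2.05% (319 genes), which puts 0 to 2 genes per list close to what the whole table holds. The opposite class held 438 of the 15559 genes. Of the listed genes it held BPGM (1 of 43 erythroid), ITGA2 (1 of 29 megakaryocyte), CD38 and ERG (2 of 51 other blood), GRIN2B (1 of 41 neuronal), 0 of 33 epithelial, and COL5A1, COL6A3, PDGFRA, TGFB2 and TNC (5 of 51 mesenchymal and skeletal).

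ZEB2, a zinc-finger repressor known for epithelial to mesenchymal transition and also used in blood cells, spanned both windows of chr2:145000001-145500000. The second of them read 1.33, 0.58 and 0.91 on the K562 arrays and -0.57, -0.57, -1.04 and -1.09 on the U2OS arrays. The platelet chemokine window chr4:74750001-75000000, which also holds CXCL2, CXCL3 and CXCL5, read 0.81, 0.48 and 0.50 on the K562 arrays and -0.32, -0.14, -1.15 and -1.13 on the U2OS arrays. In both loci all K562 arrays were positive and all U2OS arrays negative, as in 180 of the 187 windows.

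The IKZF1 window chr7:50250001-50500000 read 1.09, 0.62 and 0.99 on the K562 arrays and -0.42, -0.25, -0.39 and -0.24 on the U2OS arrays, with U2OS values close together. The BLNK window chr10:97750001-98000000, which also holds CC2D2B, CCNJ and ZNF518A, read 0.95, 0.48 and 0.42 on the K562 arrays and -0.19, -0.16, -0.60 and -0.77 on the U2OS arrays. It adjoins the window that missed the rule by the least.

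The promoters of the listed genes were read from RefSeq for ZEB2, IKZF1, PPBP and BLNK, as the 250 bases before the gene start on build GRCh38.p14, whose coordinates differ from the hg19 positions of the windows. They are shown because these are the marker genes in the windows for which the table has an entry, and capitals mark matches to AGATAA (the letters bound by GATA factors), TGTGGT (RUNX factors) or TGACTCA (AP-1), searched on both strands.
ZEB2, chr2:144520120-144520369 (- strand): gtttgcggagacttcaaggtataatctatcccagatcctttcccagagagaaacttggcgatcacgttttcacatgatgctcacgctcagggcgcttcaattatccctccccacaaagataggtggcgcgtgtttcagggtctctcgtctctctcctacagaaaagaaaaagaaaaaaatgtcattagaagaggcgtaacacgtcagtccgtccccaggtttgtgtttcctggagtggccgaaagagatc
IKZF1, chr7:50304466-50304715 (+ strand): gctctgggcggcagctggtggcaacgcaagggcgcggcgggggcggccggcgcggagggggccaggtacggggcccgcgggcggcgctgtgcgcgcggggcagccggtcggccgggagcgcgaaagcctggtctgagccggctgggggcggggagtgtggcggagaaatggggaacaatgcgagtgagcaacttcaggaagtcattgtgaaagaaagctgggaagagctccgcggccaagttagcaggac
PPBP, chr4:73988191-73988440 (- strand): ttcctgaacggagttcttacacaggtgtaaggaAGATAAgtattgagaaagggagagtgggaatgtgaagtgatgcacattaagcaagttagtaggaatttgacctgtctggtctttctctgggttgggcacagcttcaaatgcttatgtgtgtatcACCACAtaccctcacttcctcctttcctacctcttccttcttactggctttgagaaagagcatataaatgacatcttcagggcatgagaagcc
BLNK, chr10:96271570-96271819 (- strand): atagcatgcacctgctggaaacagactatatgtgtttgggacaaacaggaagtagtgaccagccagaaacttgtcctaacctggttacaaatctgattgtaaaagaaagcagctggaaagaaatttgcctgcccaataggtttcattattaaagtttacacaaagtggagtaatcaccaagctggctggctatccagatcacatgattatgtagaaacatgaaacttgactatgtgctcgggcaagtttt
The PPBP promoter held AGATAA 217 bases and the reverse complement of TGTGGT 93 bases before the start, and the other 3 held no match. Among all 27305 promoters of the table, 9.368% held AGATAA, 10.92% TGTGGT and 4.16% TGACTCA in these 250 bases on either strand. ZEB2 and IKZF1 had 12 and 28 CpG dinucleotides there, and PPBP and BLNK 1 each, with a median of 11 over the table. In the chromosome 21 run, HSPA13 had 18 and SAMSN1 had 2. The windows thus hold promoters of both kinds, and a motif match shows letters, not binding. No comparison over all genes of the windows is drawn, as only 251 of 319 (78.68%) had a promoter entry. The share was 80.42% for genes in all ranked windows.

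Several gene clusters lay whole or in part within the windows; they were chosen after their values were seen. The interleukin 1 receptor family cluster at chr2:102750001-103250000, with IL1R1, IL1RL1, IL1RL2, IL18R1 and IL18RAP, read 0.78, 0.41 and 0.50 on the K562 arrays and -0.78, -0.65, -1.67 and -1.59 on the U2OS arrays in its left window. The right window of that cluster read 0.94, 0.46 and 0.80 on the K562 arrays and -0.78, -0.52, -1.58 and -1.67 on the U2OS arrays. The formyl peptide receptor genes FPR1, FPR2 and FPR3, chemotaxis receptors of phagocytes, at chr19:52250001-52500000, read 0.96, 0.50 and 0.65 on the K562 arrays and -0.37, -0.30, -1.29 and -1.12 on the U2OS arrays. Beside them, the window of SIGLEC5, SIGLEC6 and SIGLEC14, sialic acid receptors of leukocytes, read 0.98, 0.32 and 0.26 on the K562 arrays and -0.32, -0.16, -0.96 and -0.81 on the U2OS arrays. In these clusters no K562 value fell to the level of any U2OS value, which held in all 187 windows since the rule picked for it.

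Other clusters belong to varied families. The window of CD93 and THBD, cell-surface genes of endothelial and myeloid cells, at chr20:23000001-23250000, read 0.98, 0.58 and 0.71 on the K562 arrays and -0.41, -0.19, -0.49 and -0.43 on the U2OS arrays. A histone gene window at chr6:27750001-28000000, with H2AC13 to H2AC17 and others, read 1.097, 0.28 and 0.68 on the K562 arrays and -0.39, -0.38, -0.67 and -0.78 on the U2OS arrays. The aldo-keto reductase window at chr10:5000001-5250000, with AKR1C1, AKR1C2, AKR1C3 and AKR1C8, read 1.29, 0.27 and 0.89 on the K562 arrays and -0.29, -0.18, -0.28 and -0.59 on the U2OS arrays, and its gap was 0.1532. Copies within such families are much alike, and hybridisation between them was not tested.

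Manual and automated handling were compared within U2OS. The rule required a low rank on every manual and automated array, so the values compared are among those it used, and the direction below is a description that supports nothing about these windows in particular. Log2(early/late) was lower by automated than by manual handling in 161 of the 187 windows (86.1%) and higher in 0 (limma, adjusted p under 0.05), with a median difference of -0.58. Of all 8436 windows tested, 73.8% were called, 33.5% higher and 40.3% lower, with a median of -0.03. Windows late on all arrays gave like values, with 1910 of 2219 lower and a median of -0.63, while windows early on all arrays were higher in 1648 of 2310 with a median of 0.36.

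The chromosome 7 window of UMAD1 and RPA3 differed most among the 10 widest, by -1.31 (SE 0.10). The SAMSN1 window differed by -1.02 (SE 0.12) and the ZEB2 and QTMAN window by -0.59 (SE 0.11). In IKZF1 the difference was 0.02 (SE 0.11) and in the JARID2 window chr6:15250001-15500000 it was -0.05 (SE 0.10), both called in neither direction; JARID2 was chosen after its values were seen. When every array was scaled to the same median absolute deviation, 42 of 187 windows were called, 36 lower and 6 higher, against 18.6% of all windows, with a median of -0.22. By the deposited log ratio 74 were called, 70 lower and 4 higher, against 22.4% of all windows, with a median of -0.44 where that of all windows moved to -0.16. With plain background subtraction floored at 10 units 97 were called, 96 lower and 1 higher, against 36.4%, with a median of -0.43. Windows late on all arrays had medians of -0.06 after scaling, -0.27 by the deposited log ratio and -0.43 with the floor. Of these 2219 windows, 220, 494 and 1135 were called lower in that order. Both manual arrays shared a slide and each automated array had its own, so handling and slide cannot be told apart.

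Total signal, the mean log2 of both channels, was not what the rule ranked. K562 differed from U2OS in 44 of the 187 windows (23.5%), higher in 20 and lower in 24, against 26.7% of all windows called, 13.9% higher and 12.8% lower (limma, adjusted p under 0.05). The share was near that background, and the median difference was -0.04 against 0.01 over all windows. Set against the median of their own chromosome, 83 of the 187 were higher in K562. Total signal reflects copy number as well as recovery and probe behaviour, and both lines have altered chromosomes. The count fell to 23 without the new-sorting K562 array, 28 without automated 1 and 24 without automated 2. Both manual arrays shared a slide, which the fit above ignores. With slide as a random block (correlation within a slide 0.87), 35 were called, 15 higher and 20 lower, against 22.6% of all windows. The adjusted p-values of single windows below come from the fit without this block.

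On chromosome 7, 7 of 20 windows were lower and 4 higher in K562, on a chromosome of which 11.99% of all windows were lower and 43.63% higher, with a median difference of 0.26. The windows of the longest run were among the lower ones: the RPA3 window differed by -0.55 (SE 0.16, limma adjusted p = 0.0272), the GLCCI1 window by -0.71 (SE 0.15, limma adjusted p = 0.00636) and the NXPH1 window by -0.59 (SE 0.12, limma adjusted p = 0.00492). On chromosome 6, 5 of 20 windows were higher and 0 lower, where 37.98% of all its windows were higher and the median was 0.30. The JARID2 and DTNBP1 window differed by 0.53 (SE 0.12, limma adjusted p = 0.0102). The part of copy number in the timing difference of these windows was not tested.

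Elsewhere the sign varied from locus to locus. The chromosome 21 window without a coding gene differed by 0.55 (SE 0.17, limma adjusted p = 0.0302), and the BLNK window by -0.66 (SE 0.12, limma adjusted p = 0.0035). The IKZF1 window differed by -0.34 (SE 0.12, limma adjusted p = 0.0499), close to the threshold. In ZEB2 the difference was 0.01 (SE 0.11, limma adjusted p = 0.969), although its timing gap was among the 10 widest.

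**Figure D5:**
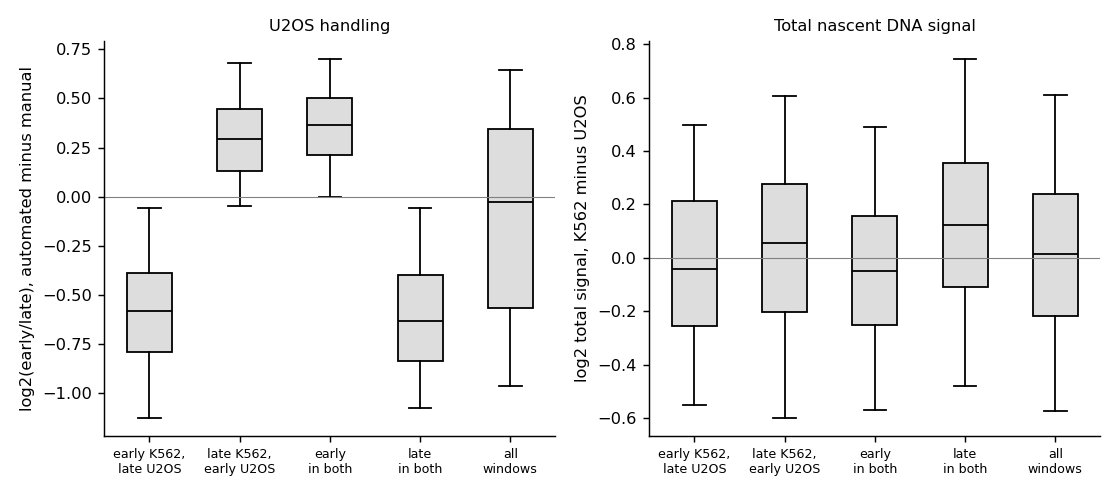
Left, automated minus manual log2(early/late) in U2OS; right, K562 minus U2OS log2 total signal, for windows by timing class; boxes span the quartiles with the median as a line, and whiskers the 5th to 95th percentile of windows. On the left the windows early in K562 and late in U2OS have a median of -0.58 and those late in both lines -0.63; on the right the medians are -0.04 and 0.12.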

How the data were processed

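Replication timing arrays (7) were analysed: K562 (3) and U2OS (4). Per the file headers, the deposited spot intensity values are raw mean signals and median local backgrounds from Agilent Feature Extraction 11.5.1.1 (the submitters' processing notes name 9.1), with probe positions on hg19. The deposited log10 ratio, late over early, was used as an alternative.

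The rule used background-subtracted intensity floored at 10 units and needed 3 or more probes per 250-kb window on chromosomes 1 to 22. Values described were background-corrected by normexp (limma 3.58.1, R 4.3.3, offset 50), with outlier-marked spots left out, saturated spots kept, repeated probes averaged and each array centred on its median probe over autosomes and X. No loess was applied, since many probes can truly shift. The offset pulls dim arrays toward 0. The number of arrays limits precision.

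Window means were tested with limma (lmFit, eBayes; Benjamini-Hochberg over 8436 windows; 1 ranked window had too few spots left). On simulated data with 200 windows shifted by 1 log2 unit, 83% were recovered for U2OS handling and 87.5% for total signal.

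Genes were named through the deposited probe names, of which 370 of 561 in these windows matched RefSeq. The erythroid, megakaryocyte, other blood, mesenchymal and skeletal, epithelial and neuronal lists were read for timing. Named were the 10 longest runs (1 is not reported here), the 10 widest gaps, listed genes and the windows nearest the thresholds. The windows and lists were chosen with earlier results of these data known. Alternatives tried were the background step, the deposited log ratio, loess, spot and dim-probe filters, window size, probe minimum, rank thresholds, scaling, blocks and leaving out each array. Windows under 3 probes and chromosome X were left out of the rule.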

Additional observations from a re-analysis of the deposited data

Results flagged for a closer look

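Timing values of named windows, runs and listed genes, and summaries of each array, were tested over the 4 U2OS arrays. Among these 30 values, 1 had a sample far from the others. On manual 2, 0.02995% of 3339 early-channel spots in the windows, which is 1 spot, were at the floor of 10 units and on the other 3 arrays 0% were. The gap then makes up the whole range (ratio 1.0) whatever its size, so this says nothing about the array. Chance marks about 1 in 20 such groups.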

How the results depend on the processing

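The rule gave 46.75 Mb (187 windows). It gave 24.5 Mb and 167 protein-coding genes with ranks above 0.60 and below 0.40, and 92.5 Mb and 639 genes with a single threshold of 0.50. Without dim probes 204 windows were left to rank, and none of the 187 was among them. The 2.0 Mb (8 windows) taken there could therefore not include any of the 187. With 500-kb windows 200 genes were counted. Leaving out each array gave 43.5 to 72.5 Mb, the highest without the old-sorting K562 array; without the 44k array other windows could be ranked as well, and over the same windows, an alternative chosen after seeing the data, the rule gave 49.75 Mb. Calls on U2OS handling, 161 of 187, numbered 42 after scaling to the same median absolute deviation, 74 with the deposited log ratio, 97 with the floor of 10 units and 144 to 160 when each array was left out. With a replicate block on the number in the title 162 were called; same-numbered arrays did not deviate together (correlation -0.0077 over 8436 windows), so the numbers do not pair them. Calls on total signal, 44 of 187, ranged from 23 to 43 when each array was left out and numbered 35 with slide as a random block. Without dim probes no window of the 187 was left, so that alternative gave no value. Of 50 alternatives on counts and lengths, 37 stayed within 1.5 times, which does not mean the same windows: with 5 or more probes the rule took 186, of which 85 were among the 131 of the 187 still ranked, and without the 44k array 174, of which 101 were among the 187. Of 110 on the K562 minus U2OS difference in the 10 windows with the widest gap, none reversed and 99 stayed within the larger SD. These windows were picked for that gap on the same arrays, and every K562 array lay above every U2OS array in them. Leaving out an array could therefore not reverse the difference, so the lack of reversals there shows nothing about stability. The range was 1.502 to 3.81, the highest with the deposited log ratio. The causes of these shifts were not tested. Late-channel spots well above background were fewest on the 44k array, at 8.622% of spots over all ranked windows. On the old-sorting array the early channel was the dimmer one, with 47.51% against 76.32% in the late channel.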

Other observations

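On chromosome X, which the rule leaves out, 477 windows were placed in the autosomal ranking. By the same thresholds 7 were early in K562 and late in U2OS, and 11 the reverse. The 7 held ARHGAP6, TSPAN7 with MID1IP1, VSIG4, HEPH with VSIG4, WDR44, PGRMC1 with KIAA1210, and STK26 with FRMD7. At chrX:65250001-65500000, with HEPH, a ferroxidase gene of iron transport that was chosen after its values were seen, ranks were 0.74, 0.60 and 0.76 on the K562 arrays and 0.18, 0.14, 0.27 and 0.29 on the U2OS arrays.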
